A study of Mus musculus with 6 samples.

Results

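Most of the genes described here encode proteins of the zymogen granule, the vesicle in which the pancreatic acinar cell stores its digestive enzymes, and proteins that keep trypsin in check. Klk1 encodes a serine protease, and no granule or inhibitor role is given here for Itpripl1. The 10 genes were taken by symbol from a fixed list (Gp2, Cuzd1, Dmbt1, Zg16, Sycn, Spink1, Serpini2, Klk1, Vamp8 and Itpripl1), and all 10 were found among the 55414 gene identifiers of each count table. RNA sequencing was done on 6 preparations of adult mouse pancreatic acinar cells, none of them treated. The 3 control preparations carried Pdx1Cre;Trip12+/+ and the 3 knockout preparations Pdx1Cre;Trip12fl/fl, so the Cre transgene was present in both groups and, by the labels, only the Trip12 allele differed. Sex, read from Xist counts, also differed, as all knockouts were male and most controls female. TRIP12 is an E3 ubiquitin ligase. Pdx1 is active in the common progenitors of the pancreas, so that a Pdx1-driven Cre is not restricted to acinar cells.

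Acinar cells package digestive enzymes as inactive zymogens, condense them in granules and release them by fusion of the granule with the apical membrane. The granule membrane carries glycoproteins such as GP2 and CUZD1, its matrix and inner face hold ZG16 and syncollin, and its fusion depends on SNARE proteins such as VAMP8. Trypsin that becomes active too early inside the cell is bound by the inhibitor SPINK1, and loss of this control is linked to pancreatitis.

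In these libraries 8 of the 10 genes were abundant acinar transcripts, and all 8 had a lower normalised mean in knockout. The difference was largest for Cuzd1, at 37.8% of the control mean, and Gp2, at 47.4%. Spink1 and Serpini2 stood at 61.6% and 63.1%, Sycn and Zg16 at 67.5% and 68.2%, and Klk1 and Dmbt1 at 76.4% and 80.2%. By the edgeR quasi-likelihood test, adjusted after Benjamini and Hochberg over 13115 genes, 0 of the 10 passed the threshold of 0.05 and 6 of the 10 had an unadjusted p under 0.05. The background was 0.945% of genes passing the adjusted threshold (0.48% lower and 0.465% higher in knockout) and 16.7% the unadjusted one. Among 26 zymogen and enzyme genes, 18 had an unadjusted p under 0.05 in the same test. With the replicate number as a block, 4 of the 10 passed, all lower in knockout (Gp2, Cuzd1, Spink1 and Serpini2), where 5.99% of genes were called (2.58% lower and 3.4% higher). The block assumes that same-numbered libraries form pairs, which the labels do not state. The directions of Klk1 and Dmbt1 were not kept with library totals in place of TMM scaling. With sex as a covariate the log2 fold changes of the 8 ran from -1.41 for Cuzd1 to -0.04 for Klk1, with Sycn at -0.05.

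Each library held between 31019500 and 34041901 counts in genes, and control replicate 1 stood with the knockouts on the first principal component (45.6% of the variance), at -37.5 against 49.9 and 55.0 in the other controls and -54.1 to 6.17 in knockout. Values for single libraries are given in the order of replicates 1, 2 and 3, and CPM are counts scaled to the library size after TMM normalisation. Trip12 measured 29.0, 22.3 and 26.4 CPM in the controls, against 14.4, 14.7 and 13.0 CPM in the knockouts, a log2 fold change of -0.89 (SE 0.14, adjusted p = 0.0256 in edgeR's test), and the call was lost in 5 of the 6 fits without a single library. Counts over the whole gene do not show which exons an allele lacks. Xist gave 2118 and 2440 counts in control replicates 2 and 3 and 3 to 5 counts elsewhere, so 2 controls were female, and control replicate 1 and all 3 knockouts male. Of 10 acinar markers none was absent, and their summed level was 366927 to 497158 CPM in control and 305223 to 316387 CPM in knockout, with 3 of the 10 lower and 1 higher without overlap of the groups. Summed duct markers (9 genes) ran from 202 to 244 CPM in control and 190.4 to 285 CPM in knockout, islet markers (8 genes) from 352 to 459 and 242 to 908 CPM, leukocyte markers (10 genes) from 17.0 to 88.2 and 15.0 to 60.6 CPM, and stromal and endothelial markers (10 genes) from 30.5 to 142 and 40.7 to 158 CPM. Among the 9 duct markers 3 were higher and 3 lower in knockout without overlap, and 5 were called with the block (3 higher and 2 lower). The block, which called 5.99% of all genes, also called 4 of 8 leukocyte markers tested (3 higher and 1 lower). It called 3 of 10 acinar markers (1 higher and 2 lower), 1 islet and 1 adipocyte marker higher and 1 intestinal marker lower. None of the 10 stromal and endothelial markers was called with it. Intestinal markers (9 genes) summed to 2.87 to 8.35 CPM in control and 1.48 to 2.81 CPM in knockout, and adipocyte markers (5 genes) to 3.45 to 8.85 and 4.57 to 17.2 CPM, with Adipoq, Plin1, Retn, Cfd, Fabp2, Apoa4 and Cdh17 at no more than 3 counts in any library. The part of these differences in the results below was not tested.

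Per length, the 10 genes spanned a wide range of levels in control. Syncollin (Sycn) had the highest level at 34117 RPKM ± 9163 (SD, n = 3), followed by Zg16 at 10472 ± 1947, Klk1 at 7117 ± 1354 and Gp2 at 3497 ± 605 RPKM. Spink1 (1176 ± 267 RPKM), Dmbt1 (882 ± 172), Serpini2 (779 ± 120) and Cuzd1 (670 ± 161) formed a lower tier, in which the libraries of neighbouring genes overlapped. Vamp8 followed at 12.2 RPKM ± 2.75. Itpripl1 was barely detected, at 0.110 RPKM ± 0.0589, with 6 to 21 counts per control library and 10 to 31 per knockout library. In knockout the order of the first 5 was the same, and Cuzd1 (253 RPKM ± 105) lay below Serpini2 (492 ± 66.5). Together the 10 genes took 4.60%, 4.89% and 5.00% of the gene counts of the controls and 4.19%, 4.50% and 4.39% of those of the knockouts. The control mean was 4.83% ± 0.208 (SD, n = 3) and the knockout mean 4.36% ± 0.155, and the groups did not overlap. The exact 95% Clopper-Pearson interval of the control replicate 1 share ran from 4.59% to 4.61% and covers counting error only.

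**Figure D1:**
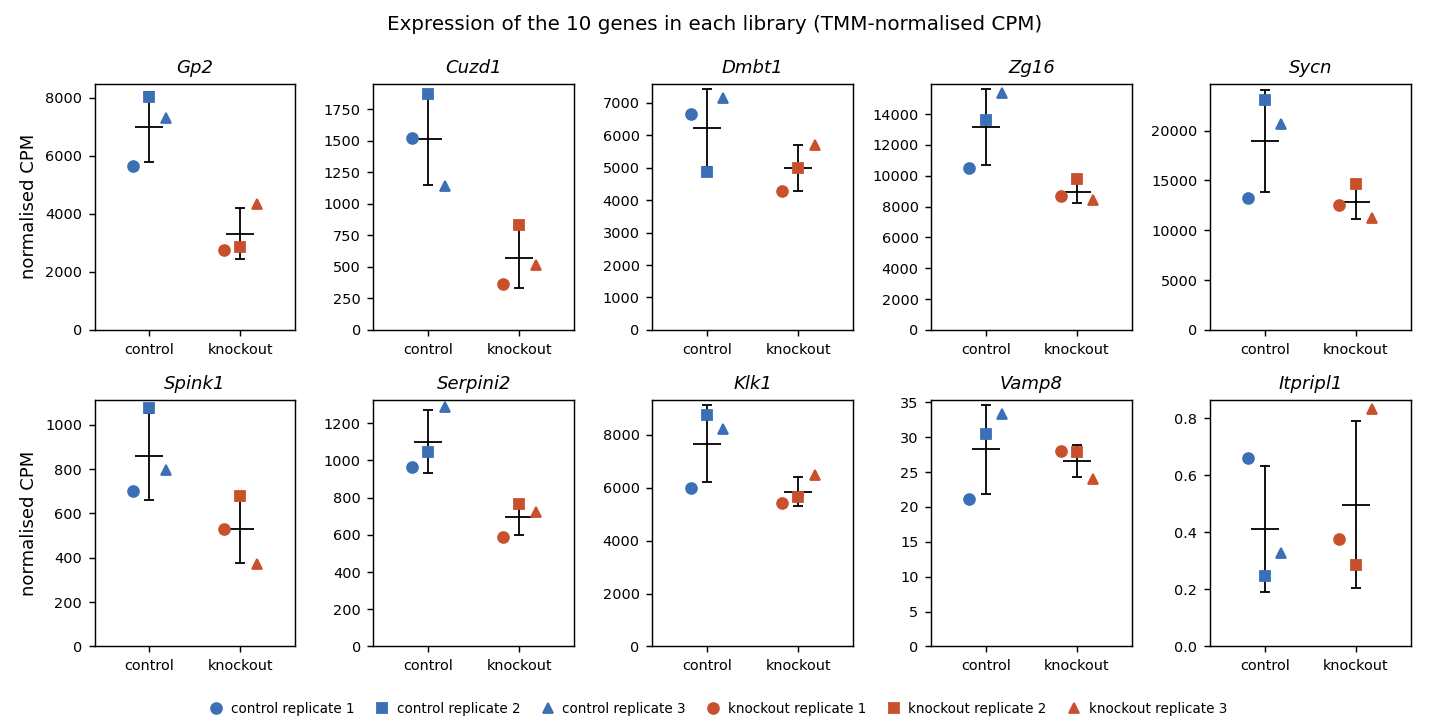
Normalised CPM (vertical axis, from 0) of each of the 10 genes in the 3 control (blue) and 3 knockout (red) libraries, with marker shape giving the replicate number and black bars the mean ± SD. The groups do not overlap for Gp2, Cuzd1, Zg16, Spink1 and Serpini2.

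GP2, a glycoprotein held in the granule membrane by a lipid anchor, is the most abundant protein of that membrane. Gp2 (ENSMUSG00000030954, chromosome 7) measured 5652, 8008 and 7300.0 CPM in the controls, against 2764, 2842 and 4339 CPM in the knockouts. Every knockout library lay below every control, and the highest knockout, replicate 3, stood apart from the other knockouts. The means were 6987 CPM ± 1209 (SD, n = 3) for control and 3315 CPM ± 888 for knockout, a log2 fold change of -1.08 (SE 0.23, 95% interval -1.60 to -0.55) at an adjusted p of 0.0698 in edgeR's test and 0.00919 with the replicate block. Leaving out control replicate 1 gave a log2 fold change of -1.23 at an adjusted p of 0.0227 in edgeR's test. That fit set female controls against male knockouts. With library totals the log2 fold change was -0.64.

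CUZD1 is a membrane protein of the granule with CUB and zona pellucida-like domains. Cuzd1 (ENSMUSG00000040205, chromosome 7) measured 1522, 1868 and 1142 CPM in the controls, against 365, 831 and 517 CPM in the knockouts. The groups did not overlap, and the highest library of all was 5.12 times the lowest, the widest range among the 9 genes above 1 CPM. The means were 1511 CPM ± 363 (SD, n = 3) and 571 CPM ± 238, a log2 fold change of -1.40 (SE 0.32, 95% interval -2.14 to -0.66), at an adjusted p of 0.0904 in edgeR's test and 0.00342 with the block. Within the numbered pairs the log2 difference was -2.06, -1.17 and -1.14. Cuzd1 and Gp2 kept their blocked calls without pair 1 and without pair 3, and neither was called without pair 2.

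The 250 bases before the transcription start of Gp2 and Cuzd1, which differed most between the genotypes, are shown beside those of Sycn, the most abundant of the 10 per length. They come from RefSeq on GRCm38.p6, at chr7:119459273-119459522 (minus strand) for Gp2, chr7:131322293-131322542 (minus strand) for Cuzd1 and chr7:28540635-28540884 (plus strand) for Sycn, and are written 5′ to 3′ along the gene. Capitals mark TGGGAA on either strand and the palindromic pattern CANNTG, letters known to be bound by the acinar complex PTF1.
Gp2: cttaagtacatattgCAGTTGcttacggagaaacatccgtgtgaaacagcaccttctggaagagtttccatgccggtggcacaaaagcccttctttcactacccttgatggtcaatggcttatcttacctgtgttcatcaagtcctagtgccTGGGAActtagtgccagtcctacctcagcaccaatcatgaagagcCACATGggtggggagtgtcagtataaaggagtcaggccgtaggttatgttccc
Cuzd1: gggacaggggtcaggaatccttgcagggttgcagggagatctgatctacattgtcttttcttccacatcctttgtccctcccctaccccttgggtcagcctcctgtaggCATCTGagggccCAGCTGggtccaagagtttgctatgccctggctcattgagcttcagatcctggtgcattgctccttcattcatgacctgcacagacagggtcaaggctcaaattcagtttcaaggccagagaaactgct
Sycn: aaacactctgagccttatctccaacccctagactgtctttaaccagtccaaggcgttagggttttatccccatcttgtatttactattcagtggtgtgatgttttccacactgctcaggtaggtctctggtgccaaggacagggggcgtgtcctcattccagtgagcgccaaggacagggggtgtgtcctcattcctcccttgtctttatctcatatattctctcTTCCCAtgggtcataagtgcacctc
Gp2 held TGGGAA 98 bases before the start and CANNTG at 235 and 53 bases, counted to the first base of the match. Cuzd1 held CANNTG at 141 and 129 bases and no TGGGAA, and Sycn held TGGGAA at 25 bases and no CANNTG. Promoters of 7 of the 10 genes were read (not Zg16, Dmbt1 and Spink1), and 3 of the 7 held TGGGAA (Sycn, Klk1 and Gp2), against 21.6% of 32851 promoters of the same length. CANNTG was present in 5 of the 7 and in 66.2% of all promoters, and its form CACCTG, on either strand, in 2 of the 7 (Serpini2 and Klk1) and in 17.2% of all. Both TGGGAA and CANNTG, at any distance from each other, were present in Klk1 and Gp2, and in 14.8% of all promoters. These are matches of letters and not measured binding.

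DMBT1, also called muclin in mouse, is a large mucin-like glycoprotein of the granule membrane and lumen. Dmbt1 (ENSMUSG00000047517, chromosome 7) measured 6648, 4854 and 7161 CPM in the controls, against 4278, 5004 and 5687 CPM in the knockouts. The groups overlapped, because control replicate 2 lay below 2 of the knockouts. The means were 6221 CPM ± 1211 (SD, n = 3) and 4989.7 CPM ± 705. Its log2 fold change was -0.32 (SE 0.20, 95% interval -0.78 to 0.14, adjusted p = 0.485 in edgeR's test), and it was 0.08 with library totals. The 3 granule membrane glycoproteins had values from 37.8% to 80.2% of control.

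ZG16 is a lectin of the granule matrix. Zg16 (ENSMUSG00000049350, chromosome 7) measured 10521, 13616 and 15351 CPM in the controls, against 8713, 9797 and 8414 CPM in the knockouts. All knockouts lay below all controls, with control replicate 1 nearest to them. The means were 13163 CPM ± 2447 (SD, n = 3) and 8975 CPM ± 728. The log2 fold change was -0.55 (SE 0.19, adjusted p = 0.199 in edgeR's test). Without control replicate 1, which left only female controls, it was -0.71 at an adjusted p of 0.0331 in the same test. With library totals it was -0.12.

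Syncollin lines the inner face of the granule membrane. Sycn (ENSMUSG00000084174, chromosome 7) measured 13252, 23031 and 20624 CPM in the controls, against 12502, 14660 and 11261 CPM in the knockouts. Control replicate 1 lay inside the knockout range, and the other controls lay above it. The means were 18969 CPM ± 5095 (SD, n = 3) and 12808 CPM ± 1720.0. The log2 fold change was -0.57 (SE 0.23, adjusted p = 0.267 in edgeR's test). Without control replicate 1, which left only female controls, it was -0.79 at an adjusted p of 0.0338 in the same test. With library totals it was -0.12.

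SPINK1, known in mouse also as SPINK3, is the trypsin inhibitor that acinar cells secrete with their zymogens. Spink1 (ENSMUSG00000024503, chromosome 18) measured 702, 1075 and 794 CPM in the controls, against 532, 679 and 373 CPM in the knockouts. The groups were separated by a narrow gap between control replicate 1 and knockout replicate 2. The means were 857 CPM ± 195 (SD, n = 3) and 528 CPM ± 153, a log2 fold change of -0.70 (SE 0.26, 95% interval -1.28 to -0.12) at an adjusted p of 0.228 in edgeR's test and 0.0484 with the block. With library totals it was -0.27, and the blocked call was lost in each of the 3 fits that left out a pair, with adjusted p from 0.0617 to 0.374.

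SERPINI2, also called pancpin, is a serpin, the family of suicide inhibitors of serine proteases. Serpini2 (ENSMUSG00000034139, chromosome 3) measured 963, 1045 and 1288 CPM in the controls, against 588, 768 and 725 CPM in the knockouts. Every knockout lay below every control. The means were 1099 CPM ± 169 (SD, n = 3) and 694 CPM ± 93.8, a log2 fold change of -0.66 (SE 0.19, 95% interval -1.09 to -0.24), at an adjusted p of 0.138 in edgeR's test and 0.04996 with the block, just under the threshold. The blocked call was lost without each pair in turn, with adjusted p from 0.0575 to 0.318. It was called, without the block, when control replicate 1 was left out and all controls were female (adjusted p = 0.0462 in edgeR's test). Its log2 fold change with library totals was -0.24.

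Tissue kallikrein, encoded by Klk1, is itself a serine protease and releases kinins from kininogen. Klk1 (ENSMUSG00000063903, chromosome 7) measured 6012, 8769 and 8214 CPM in the controls, against 5438, 5637 and 6495 CPM in the knockouts. Knockout replicate 3 lay above control replicate 1, so the groups overlapped. The means were 7665 CPM ± 1458 (SD, n = 3) and 5857 CPM ± 562. The log2 fold change was -0.39 (SE 0.19, 95% interval -0.82 to 0.05, adjusted p = 0.355 in edgeR's test) and 0.05 with library totals. Klk1 has many close relatives in mouse, and reads mapped to several places were held outside the genes (26.0% to 28.4% of all reads in control and 21.6% to 24.1% in knockout), so its counts are uncertain.

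VAMP8 is the SNARE protein of the granule membrane on which much of regulated enzyme release depends. Vamp8 (ENSMUSG00000050732, chromosome 6) measured 21.1, 30.4 and 33.3 CPM in the controls, against 28.1, 27.9 and 24.0 CPM in the knockouts. The knockout values lay inside the control range. The means were 28.3 CPM ± 6.36 (SD, n = 3) and 26.7 CPM ± 2.29. Its log2 fold change was -0.08 (SE 0.18, 95% interval -0.49 to 0.33, adjusted p = 0.876 in edgeR's test), and it was 0.36 with library totals. Itpripl1 (ENSMUSG00000074825, chromosome 2) measured 0.661, 0.246 and 0.327 CPM in the controls, against 0.375, 0.285 and 0.831 CPM in the knockouts. Its 95% interval ran from -1.17 to 1.68 on the log2 scale, so the direction was not determined.

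**Figure D2:**
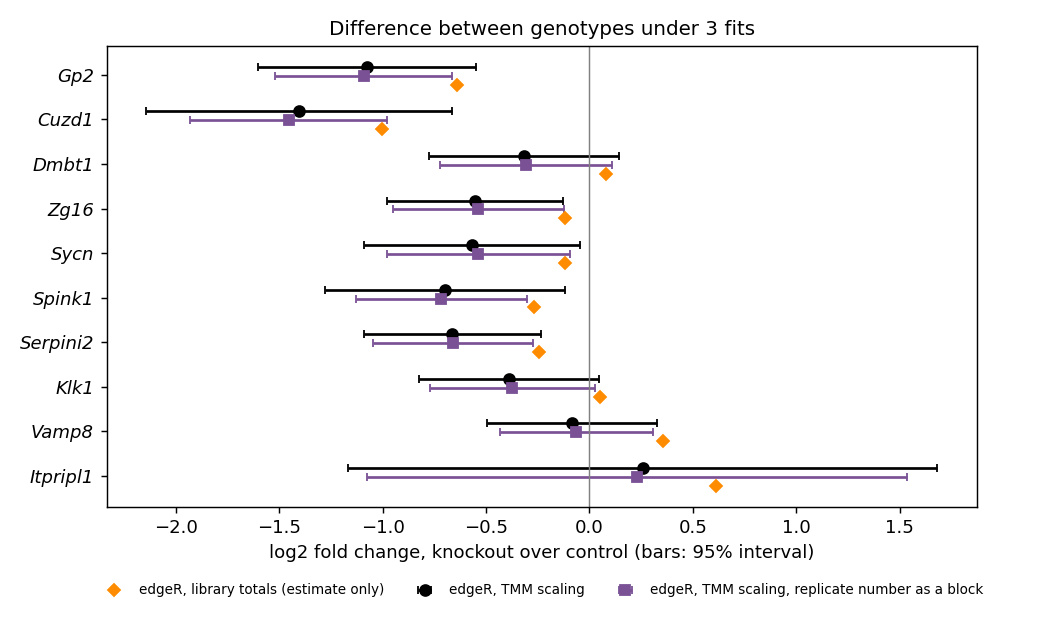
Log2 fold change of knockout over control for each gene (horizontal axis, bars 95% interval) in edgeR with TMM scaling (black), with the replicate number as a block (purple) and, as estimates only, with library totals (orange). Gp2 and Cuzd1 lie farthest below 0, and the estimates with library totals lie to the right of the others for all 10 genes.

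The enzyme transcripts held 72.2%, 74.4% and 73.1% of the gene counts in the controls and 70.2%, 69.6% and 70.2% in the knockouts, and the values depended on how the libraries were scaled. Library totals moved the median of all tested log2 fold changes by 0.41, to 0.43, and left the 10 genes with a median of -0.12 in place of -0.56. With library totals edgeR's test called 0 of the 10 (3 at an unadjusted p under 0.05), where 11.6% of genes were called and 0.587% called lower. In that test 4465 of all 13115 genes had an unadjusted p under 0.05. A change of scaling moves all genes by a similar amount. The median of the 10 genes therefore stayed below that of all genes, which the second scaling could hardly change. DESeq2 called 5 of the 10 (4.53% of all genes), limma-voom 0, and edgeR without a filter on low counts 3 (3.3% of all genes). With TMM scaling 9 of the 10 had a log2 fold change below 0, against 47.6% of all genes tested. Normalised values without overlap, all lower in knockout, were found in 5 of 10 genes, where 10.9% of all genes were lower and 12% higher without overlap. Among the 26 zymogen and enzyme genes, 15 were lower and 3 higher without overlap, so this was not particular to the 10 genes. Leaving out control replicate 1, so that all controls were female, brought the number called lower to 4 (Gp2, Zg16, Sycn and Serpini2). In that fit 1.88% of all genes were called lower. Leaving out any other single library left the number of the 10 at 0. With the block the number was 2 without pair 1, 0 without pair 2 and 2 without pair 3, where 1.42%, 0.43% and 2.64% of all genes were called lower. Among the 10, 4 had an unadjusted p under 0.05 in the blocked edgeR fit without pair 2, as did 1755 of all 13712 genes tested there.

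**Figure D3:**
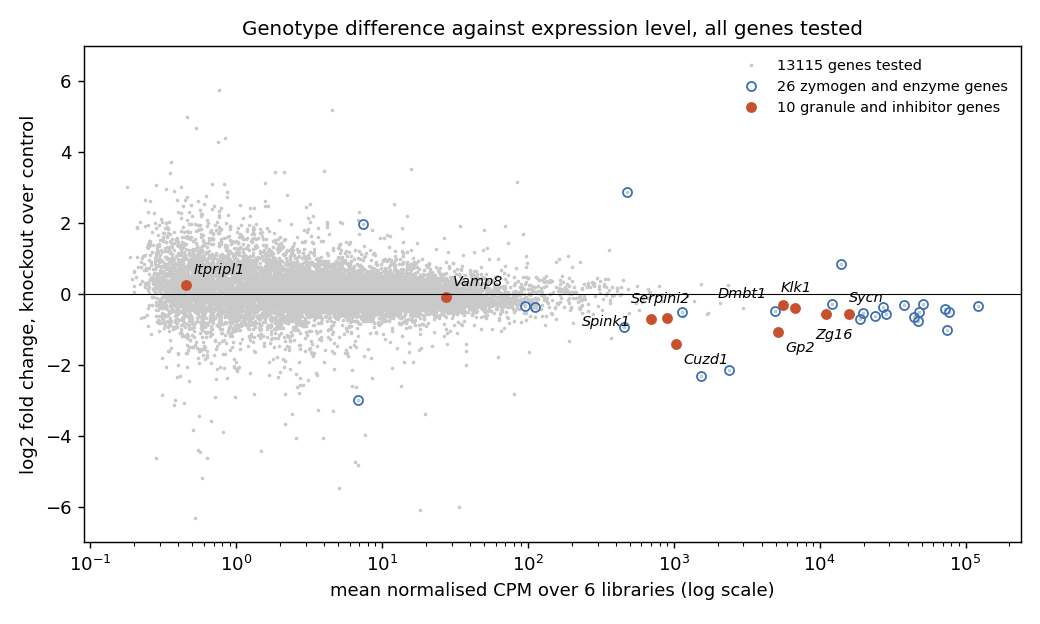
Log2 fold change of knockout over control (vertical axis) against mean normalised CPM (horizontal axis, log scale) for the 13115 genes tested (grey), 26 zymogen and enzyme genes (blue circles) and the 10 listed genes (red, labelled granule and inhibitor genes). The 8 abundant genes of the 10 lie below 0, as do most of the enzyme genes. Vamp8 lies close to 0 at 27.5 CPM, and Itpripl1 lies among the genes of lowest level.

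Other abundant genes also had mostly lower values in knockout. Outside the 10 genes, 45 genes had a mean of at least 500 CPM, and 37 of them (82.2%) had a log2 fold change below 0, with a median of -0.33. The 25 of these outside the enzyme list had a median of -0.11, and all 26 genes of the enzyme list, at any level, had a median of -0.49. The 8 of the 10 genes at 500 CPM or more had a median of -0.62. A smaller number of acinar cells and less RNA of these genes per acinar cell cannot be told apart in bulk samples.

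Counts set against the enzyme counts of the same library do not depend on the scaling. Per 1000 counts of 26 zymogen and enzyme genes, Gp2 reached 7.95, 8.45 and 8.07 counts in the controls, against 4.69, 4.56 and 7.16 in the knockouts, without overlap and with knockout replicate 3 near the controls. Cuzd1 had 2.14, 1.97 and 1.26 in control and 0.619, 1.34 and 0.853 in knockout, where control replicate 3 lay below knockout replicate 2. The knockout mean was 0.671 times the control mean for Gp2 and 0.523 times for Cuzd1. Zg16 and Sycn stood close to the enzymes, with 15.4 ± 1.40 and 14.8 ± 0.923 (SD, n = 3) for Zg16 and 21.9 ± 2.93 and 21.1 ± 2.48 for Sycn in control and knockout, and the groups overlapped for both. The ratio of means was 0.870 for Spink1, 0.883 for Serpini2, 1.08 for Klk1 and 1.10 for Dmbt1, each with overlapping groups. Vamp8 stood higher against the enzymes in every knockout, with 0.0297, 0.0321 and 0.0368 per 1000 in control and 0.0476, 0.0448 and 0.0396 in knockout. The enzyme count is the same divisor for every gene of a library. With library totals the log2 fold change of Vamp8 was 0.36, beside a median of 0.43 over all genes tested. The rise of Vamp8 against the enzymes was thus not particular to this gene. Set against all remaining gene counts instead, the ratios were 0.548 for Gp2, 0.426 for Cuzd1, 0.786 for Zg16 and 0.781 for Sycn, and Vamp8 stood at 1.09 with overlapping groups. Against that sum Klk1 (0.883) and Dmbt1 (0.913) lay below 1 with overlapping groups, Spink1 stood at 0.706 with overlap, and Serpini2 at 0.724 without overlap.

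**Figure D4:**
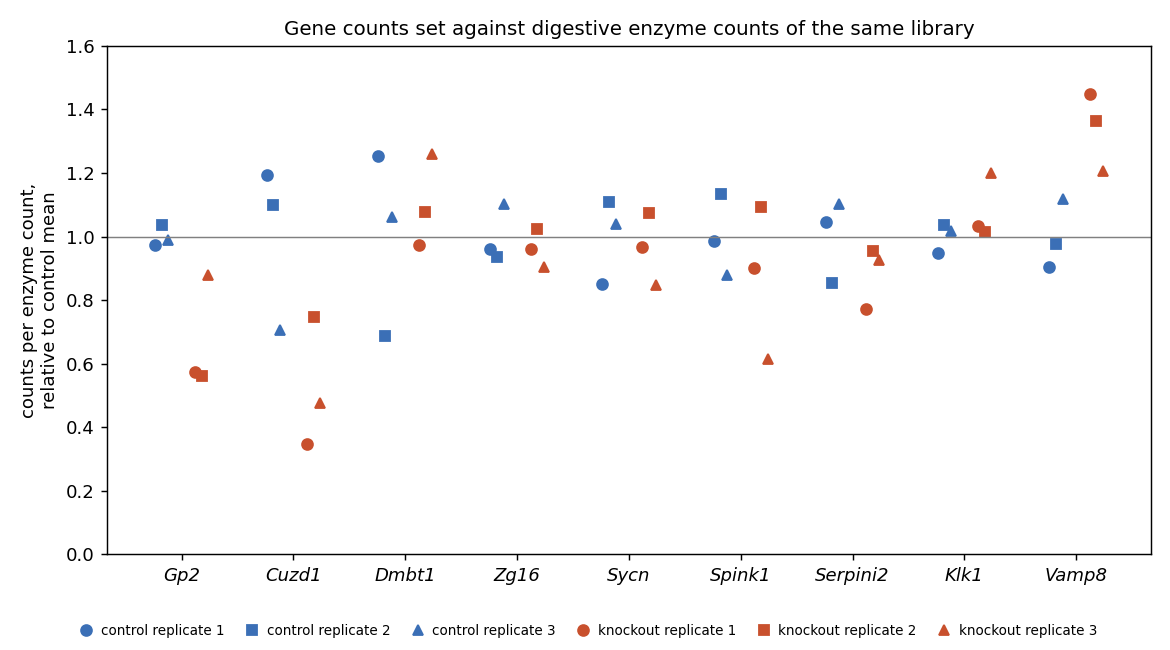
Counts of each gene per enzyme count of the same library, divided by the control mean (vertical axis, from 0), for 3 control (blue) and 3 knockout (red) libraries, with marker shape giving the replicate number. Gp2 lies below the controls and Vamp8 above them in all 3 knockouts, while Zg16 and Sycn scatter around 1 in both groups. With library totals the log2 fold change of Vamp8 was 0.36, beside a median of 0.43 over all genes tested.

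The sexes were unequally spread over the groups. With only the 4 male libraries, control replicate 1 against 3 knockouts, the log2 fold change in edgeR's test was -0.75 for Gp2, -1.40 for Cuzd1, -0.46 for Serpini2, -0.40 for Dmbt1, -0.39 for Spink1 and -0.21 for Zg16, and it was -0.03 for Sycn and -0.02 for Klk1. Vamp8 stood at 0.35 there. With sex as a covariate the values were -0.77 for Gp2, -1.41 for Cuzd1, -0.41 for Spink1, -0.23 for Zg16 and -0.05 for Sycn. With the covariate none of the 10 was called, and 2 had an unadjusted p under 0.05 in edgeR's test, as did 1391 of all 13115 genes. Both fits rest on 1 male control, assumed to vary like the others. Sex and the other properties of control replicate 1 cannot be told apart. Fits without control replicate 1 or without pair 1 set female controls against male knockouts, so genotype and sex cannot be told apart in them.

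The genes varied together to different degrees across the 6 libraries, which share the group difference, the scaling and the enzyme load. Log2 CPM of Zg16 and Sycn had a Pearson correlation of 0.94, Zg16 and Serpini2 0.93, and Gp2 and Klk1 0.90. Dmbt1 stood at 0.09 with Spink1, 0.16 with Sycn and -0.15 with Vamp8. Among 3890 protein-coding genes of at least 10 CPM, the nearest profile to Gp2 by Euclidean distance of centred log2 CPM was Habp2 (distance 0.285), and Fuca2 followed (0.422). For Cuzd1 they were Slc38a5 (0.543) and Oxct1 (0.699), for Zg16 Kif1c (0.0658) and Golga7 (0.134), for Sycn Sostdc1 (0.166) and Mrps24 (0.182), and for Spink1 Gnl3 (0.262) and Bscl2 (0.277). For Klk1 they were Vapa (0.103) and Tmed11 (0.134), for Dmbt1 Zbtb33 (0.110) and Itpr2 (0.151), for Serpini2 Gclc (0.131) and Arl1 (0.187), and for Vamp8 Map2k2 (0.0705) and Spr (0.149).

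The cargo of the granule was compared through the 26 zymogen and enzyme genes. Their median log2 fold change was -0.49, 23 of 26 were below 0, and edgeR's test called 1, Prss3, which was higher (114 CPM ± 27.3 against 836 CPM ± 179 in knockout, SD, n = 3, adjusted p = 0.00166 in edgeR's test). DESeq2 called 15 of the 26, 3 higher and 12 lower, and limma-voom 1. With the block 5 were called, Prss3 and Try5 higher and Try10, Cela2a and Cpb1 lower. Cela2a, a pancreatic elastase, fell from 99707 to 49693 CPM (log2 fold change -0.99, adjusted p = 0.0109 in edgeR's blocked test), and Cpb1, a carboxypeptidase, from 59303 to 34907 CPM (-0.76, adjusted p = 0.0321 in that test). Without the block their adjusted p was 0.0522 and 0.0884. Of the blocked calls, those of Cela2a and Try10 were lost without pair 2 (adjusted p = 0.285 and 0.236) and those of Cpb1 and Try5 without pair 1 (0.0725 and 0.0703) and without pair 2 (0.352 and 0.282). The most abundant, the chymotrypsinogen Ctrb1 and the lipase Pnlip, were not called, at log2 fold changes of -0.33 and -0.50 (adjusted p = 0.394 and 0.254 in edgeR's test). Trypsinogen genes are near-identical, so the counts of Prss3, Try5 and Try10 are uncertain.

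The machinery that tethers and fuses granules was tested in 32 of 35 listed genes. No call was made among them by edgeR's test (5 had an unadjusted p under 0.05), by DESeq2, by limma-voom or with the block. The median log2 fold change was -0.10, with 20 of 32 below 0, beside 0.02 for all genes tested. With library totals it was 0.32, with 2 of 32 below 0 and 5 called higher, beside 0.43 for all genes. Rab3d, the granule Rab GTPase, averaged 139 CPM ± 12.2 in the controls (SD, n = 3) and 129.6 CPM ± 6.34 in the knockouts (log2 fold change -0.10, adjusted p = 0.805 in edgeR's test). Myo5c, a myosin of secretory granules, had 71.5 CPM ± 11.9 and 70.3 CPM ± 12.5 (adjusted p = 0.966 in edgeR's test).

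Among 20 further matrix and cargo sorting genes 19 were tested and none was called by edgeR's test (7 at an unadjusted p under 0.05, 3 called by DESeq2 and none by limma-voom), with a median log2 fold change of -0.04, which was 0.36 with library totals. With the block Muc1, a membrane mucin that is also in the duct list, and Reg1, a secreted lectin, were called lower (log2 fold changes -0.72 and -0.95, adjusted p = 0.0355 and 0.0432 in edgeR's blocked test). The blocked call of Muc1 was lost without pair 2 (adjusted p = 0.351) and without pair 3 (0.0778), and that of Reg1 without pair 2 (0.379). With sex as a covariate their log2 fold changes were -0.29 and -0.099. Reg1 measured 7293, 17346 and 16995 CPM in the controls, against 5960, 8737 and 5733 CPM in the knockouts, with control replicate 1 inside the knockout range. Pdia2, a pancreatic disulfide isomerase, averaged 2278 CPM ± 296 in the controls (SD, n = 3) and 1898 CPM ± 199.7 in the knockouts (adjusted p = 0.502 in edgeR's test).

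Other protease inhibitors were set beside Spink1 and Serpini2. Of 33 listed, 19 were tested, 14 of the 19 had a log2 fold change above 0, and the median was 0.08. EdgeR's test called 1, Cst3, which encodes cystatin C, an inhibitor of cathepsins. Cst3 measured 410, 623 and 541 CPM in the controls, against 214, 245 and 203 CPM in the knockouts, so that every knockout lay well below every control. It fell by 1.25 on the log2 scale (SE 0.20, adjusted p = 0.0251 in edgeR's test and 0.00241 with the block). The call was lost in 5 of the 6 fits that left out 1 library, with adjusted p up to 0.157, and was kept without control replicate 1. With sex as a covariate it stood at -0.89 on the log2 scale with an adjusted p of 0.185. With the block Ambp and Timp3 were called higher. Ambp, the precursor of bikunin, rose from 5.13 CPM ± 1.15 (SD, n = 3) to 16.4 CPM ± 6.25 (adjusted p = 0.0173 in edgeR's blocked test), and Timp3, an inhibitor of metalloproteases, had 4.61 CPM ± 4.40 and 7.56 CPM ± 5.14 with overlapping groups (adjusted p = 0.0238 in that test) and a log2 fold change that turned to -0.35 with sex as a covariate. The blocked call of Ambp was lost without pair 1 (adjusted p = 0.11), and that of Timp3 without pair 1 (0.0551) and without pair 2 (0.243). The most abundant after Cst3 was Spint2, at 105 CPM ± 20.5 and 112 CPM ± 4.68 (adjusted p = 0.852 in edgeR's test).

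Of 21 relatives of Klk1, 8 were tested and none was called (edgeR's test, 2 at an unadjusted p under 0.05, none by DESeq2 or limma-voom), with a median log2 fold change of 0.35. Klk1b5, the most abundant, averaged 85.1 CPM ± 13.4 in the controls (SD, n = 3) and 109 CPM ± 14.1 in the knockouts (adjusted p = 0.347 in edgeR's test). With the block Klk1b4 was called higher and Klk1b3 lower (log2 fold changes 0.64 and -0.64, adjusted p = 0.0274 and 0.0382 in edgeR's blocked test). Both blocked calls were lost without each pair in turn, with adjusted p from 0.0606 to 0.122 for Klk1b4 and from 0.0765 to 0.209 for Klk1b3. Klk1b3 stood at -0.33 on forward-strand and -0.97 on reverse-strand counts. These genes resemble each other closely, and their counts are uncertain.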

How the data were processed

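Each of the 6 libraries was deposited by the authors as raw counts per Ensembl gene in 3 columns (unstranded, forward and reverse), with 4 leading rows for reads outside genes, which stayed out of library sizes and tests and held 36.9% to 45.7% of all reads. The submitters' processing notes name STAR 2.7.10a and the builds GRCm39 and mm39; the annotation, and whether a count is a read or a pair, are not given in the sources used here. Libraries were poly-A selected and primed with random hexamers, per the labels' protocols. Forward counts made up 50.1% to 50.3% of forward and reverse together, so unstranded counts were used, and overlapping genes on opposite strands cannot be separated. Symbols and exonic lengths came from GENCODE M21 (GRCm38), which held 94.1% of the identifiers and at least 99.8% of the counts. In it, no gene of the 10 shares exonic bases with another gene.

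Counts were tested with edgeR 4.0.16 in R 4.3.3 (filterByExpr, TMM, robust quasi-likelihood fit), and calls are adjusted p under 0.05 over 13115 genes. The standard error is the log2 fold change divided by the square root of F. DESeq2 1.42.0 and limma-voom (limma 3.58.1) were alternatives, beside other scalings, filters, strands, libraries left out, sex and the replicate block. The replicate numbers of the labels were taken to pair the libraries, because same-numbered libraries deviated together from their group means (correlations 0.63, 0.455 and 0.285, against -0.496 to 0.21 for other pairs). The labels do not state this pairing. It was read from the same counts that the blocked fit then tested, so the blocked calls rest on an assumption. All pairs of libraries differed by more than counting noise (chi-square per degree of freedom at least 26.3). The scripts were tested on simulated data. The labels call the preparations biological replicates and give each its own code, without saying whether a code stands for an animal. The p-values therefore measure the spread between these preparations. The growth text of the labels speaks of tumour cell lines and does not describe them.

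The 10 genes, the related lists and the tests were chosen with earlier results of these data known. Named genes are the 10, Trip12, list genes called with or without the block, the 2 most abundant of each list and the 2 nearest profiles of each of the 10 above 10 CPM. Genes neither listed nor called (Xist, marker genes) are given as checks, and 1 marker list is not reported here. Males-only fits, the set of genes above 500 CPM and fits of single list genes were chosen after seeing the data.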

Additional observations from a re-analysis of the deposited data

How the results depend on the processing

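The number of the 10 genes called (0) was 4 with the replicate block, 5 with DESeq2's Wald test, 3 without a filter on low counts, 1 when each library had to reach 10 counts and 1 with forward-strand or reverse-strand counts, and it ran from 0 to 4 when libraries or pairs were left out. The number of all genes called (124) was 785 with the replicate block, 1519 with library totals (94.9% higher against 49.2%), 594 with DESeq2, 850 without a filter, 210 when each library had to reach 10 counts, 21 with sex as a covariate and 18 in males only, and ran from 20 to 461 when single libraries and from 100 to 832 when pairs were left out (396 without pair 1). Trip12 lost its call with library totals (log2 fold change -0.49), with sex as a covariate (-1.05), in males only (-1.03), in 5 of 6 fits without a single library (adjusted p 0.0676 to 0.14, called without control replicate 1 at 0.0211) and in the blocked fit without pair 2 (0.0528), and ran from -0.98 to -0.82 when single libraries and from -1.02 to -0.81 when pairs were left out. Directions turned with library totals for Klk1 (0.050), Dmbt1 (0.081) and Vamp8 (0.36), with sex as a covariate for Vamp8 (0.34), Itpripl1 (-0.41) and Timp3 (-0.35), and in males only for Vamp8 (0.35), Itpripl1 (-0.39) and Timp3 (-0.33). They also turned when single libraries were left out for Vamp8 (-0.28 to 0.048, above 0 without control replicate 3), Itpripl1 (-0.32 to 0.76, below 0 without knockout replicate 3) and Timp3 (-0.0043 to 1.82, below 0 without knockout replicate 1), and for Vamp8 (0.14) and Itpripl1 (-0.39) in the blocked fit without pair 3. List genes called with library totals, without a filter and with the replicate block were 5, 5 and 5 enzymes (1 in the main test), 2, 3 and 2 matrix genes (0), 4, 2 and 3 inhibitors (1) and 2, 2 and 2 kallikreins (0), and library totals called 5 exocytosis genes (0). Library totals and the filters change the scale or the number of genes tested; the cause of the other shifts was not tested. The other scalings and limma-voom left the number of the 10 genes called at 0. Itpripl1 had at most 31 counts in a library.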
